A study of Mus musculus with 6 samples.

Results

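Endothelial cells, which line the blood vessels, were followed in whole embryonic mouse lung through 10 genes that mark them. The genes were taken by name as Kdr, Flt1, Tek, Tie1, Cdh5, Pecam1, Emcn, Sox17, Sox18 and Erg, and all 10 were among the 14162 genes measured. RNA was sequenced from lungs at stage E12.5 in 3 libraries of the genotype ShhCre-Dnmt1KO, here called Dnmt1KO, and in 3 of wild-type littermates, called WT. Cre recombinase from Shh is known for activity in the endoderm that forms the airway epithelium, whereas lung endothelium arises from mesoderm. Dnmt1 is the enzyme that copies DNA methylation at each cell division. No cell sorting is named in the labels, nor how many embryos went into a library, so p-values cover the spread between libraries, which may be technical. In such whole tissue, fewer cells of a type and less RNA per cell cannot be told apart.

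Vessel growth in the lung bud depends on vascular endothelial growth factor (VEGF), which epithelium and mesenchyme release and endothelial cells receive through KDR, the main signalling receptor. FLT1 binds the same ligand tightly and limits how much of it reaches KDR. Angiopoietins act on the receptor TEK, also called TIE2, with TIE1 as its partner, and steady the vessel wall. CDH5 (VE-cadherin) and PECAM1 hold endothelial cells together, endomucin (Emcn) is a sialomucin of capillaries and veins, and SOX17, SOX18 and the ETS factor ERG are transcription factors that keep endothelial identity. Around this stage a vascular plexus surrounds the branching airways.

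The libraries held between 18192629 and 25597662 reads over the measured genes. Every member was well above the floor of detection, with the lowest number, 290 reads, for Sox17 in WT replicate 2. Reads from 4 genes of the Y chromosome came to 3 in Dnmt1KO replicate 1 and to between 4155 and 5207 in the other 5 libraries. Cardiac muscle genes were high in Dnmt1KO replicate 2, where Myh6 had 2293 reads. The other Dnmt1KO libraries had 46 and 283 reads of it, against 168, 40 and 48 reads for WT.

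None of the 10 endothelial genes differed between Dnmt1KO and WT lungs beyond the spread of the libraries. By limma, with Benjamini-Hochberg adjustment over all genes and a threshold of 0.05, 0 of the 10 were higher and 0 were lower, where 0.282% of all genes were called higher and 0.00706% lower. At an unadjusted p under 0.05 the count of members was 0, against 4.52% of all genes, and it was 0 with voom on the recovered reads as well. The groups overlapped for all 10 members, while 8.78% of all genes had groups that did not overlap. Log2 fold changes, Dnmt1KO over WT, ran from -0.08 for Erg to 0.18 for Tek, with a median of 0.026 beside a median of -5.9e-05 over all genes. Taken over the 10 genes, the 95% intervals reached down to 0.678-fold, for Cdh5, and up to 1.78-fold, for Tek, and each gene's own interval is given with its values.

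**Figure D1:**
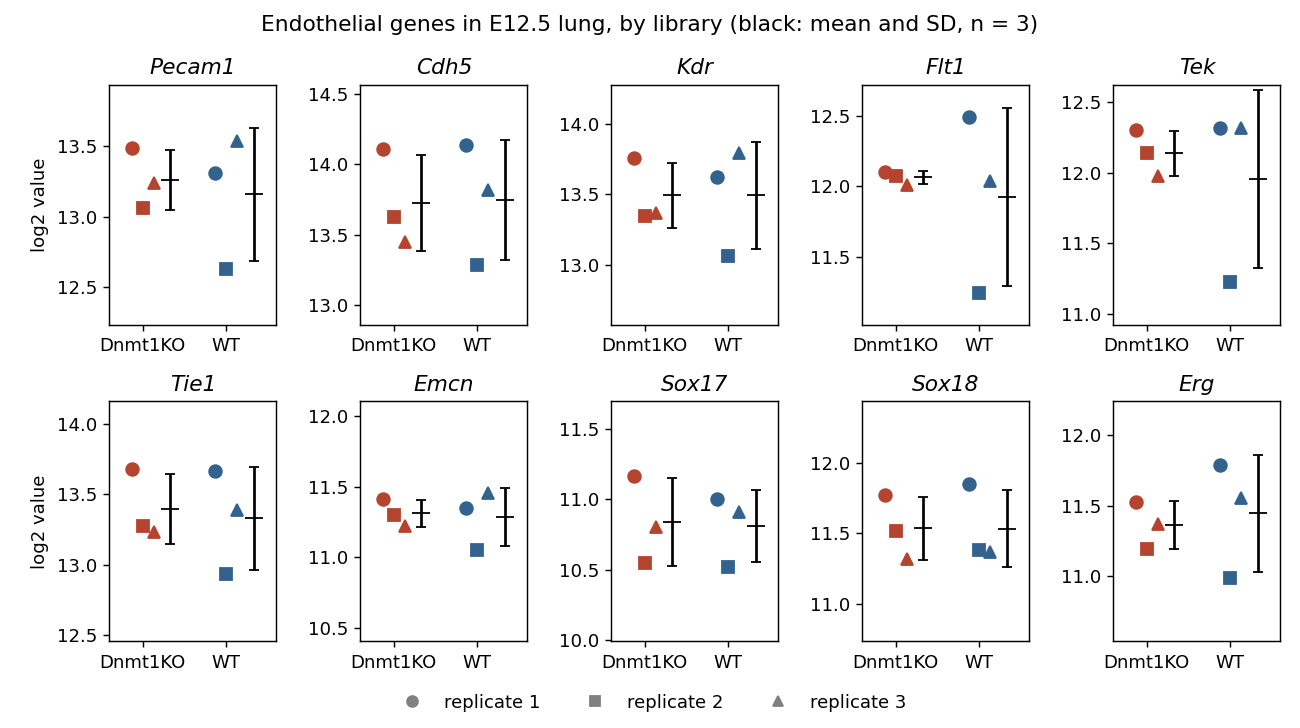
Deposited log2 values of each endothelial gene in the 3 Dnmt1KO libraries (left, red) and the 3 WT libraries (right, blue), with the mean and SD of each group in black and replicates told apart by the shape of the point; each panel spans the same number of log2 units. The groups overlap for every gene, and WT replicate 2 is the lowest library for 9 of the 10.

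Among the VEGF receptors, Kdr had log2 values of 13.75, 13.35 and 13.37 in Dnmt1KO replicates 1, 2 and 3, against 13.62, 13.06 and 13.79 in WT replicates 1, 2 and 3. All 3 Dnmt1KO values lay inside the range of the WT values. Kdr averaged 13.49 ± 0.23 (SD, n = 3) among Dnmt1KO lungs and 13.49 ± 0.38 (SD, n = 3) among WT lungs, a log2 fold change of 0.00041 ± 0.19 (SE) with a 95% interval from 0.739- to 1.35-fold. Flt1 stood at 12.10, 12.07 and 12.01 in Dnmt1KO, against 12.49, 11.24 and 12.03 in WT. The Dnmt1KO libraries were close together (SD 0.047), and the WT libraries held both the highest and the lowest value (SD 0.63). Its log2 fold change was 0.14 ± 0.27, with an interval from 0.713- to 1.70-fold. Both receptors had limma adjusted p = 1.0, as had the other 8 genes.

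Of the TIE receptors, Tek had the largest fold change of the 10. Its log2 values were 12.30, 12.14 and 11.98 in Dnmt1KO, against 12.32, 11.23 and 12.32 in WT. WT replicates 1 and 3 were as high as the highest Dnmt1KO library, and WT replicate 2 was lower than all others. The log2 fold change of 0.18 ± 0.28 (interval 0.725- to 1.78-fold) turned to -0.18 when WT replicate 2 was left out. Tie1 stood at 13.68, 13.27 and 13.24 in Dnmt1KO, against 13.66, 12.93 and 13.39 in WT, a log2 fold change of 0.067 ± 0.19 (0.775- to 1.42-fold). Replicate 1 was the highest library of each group for this gene.

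The 4 receptors also differed in the sequence at their start sites. RefSeq promoter windows on build GRCm38.p6, 250 bases before to 50 after each start, matched 6 of the 10 members by symbol and gave 8 windows. Those of the receptors are shown because ERG and other ETS factors are known to bind receptor genes of the endothelium, and because methylation by DNMT1 falls on CpG pairs. They lie at chr5:75978406-75978705 on the minus strand for Kdr, chr5:147725962-147726261 on the minus strand for Flt1, chr4:94739039-94739338 on the plus strand for Tek and chr4:118489800-118490099 on the minus strand for Tie1. Each is written 5′ to 3′ in the direction of transcription, and capitals mark the ETS core GGAA on either strand (TTCC on the other).
Kdr: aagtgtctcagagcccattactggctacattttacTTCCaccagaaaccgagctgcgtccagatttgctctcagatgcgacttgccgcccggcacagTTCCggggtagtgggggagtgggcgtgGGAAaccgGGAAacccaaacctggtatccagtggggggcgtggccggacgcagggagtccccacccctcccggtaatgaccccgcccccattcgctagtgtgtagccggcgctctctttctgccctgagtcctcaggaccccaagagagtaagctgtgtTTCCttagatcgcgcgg
Flt1: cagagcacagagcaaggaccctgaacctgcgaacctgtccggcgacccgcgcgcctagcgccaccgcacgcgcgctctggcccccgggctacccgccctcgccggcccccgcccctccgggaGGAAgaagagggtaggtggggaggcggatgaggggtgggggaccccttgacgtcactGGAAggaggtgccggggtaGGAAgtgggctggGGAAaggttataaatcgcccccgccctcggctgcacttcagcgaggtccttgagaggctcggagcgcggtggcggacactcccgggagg
Tek: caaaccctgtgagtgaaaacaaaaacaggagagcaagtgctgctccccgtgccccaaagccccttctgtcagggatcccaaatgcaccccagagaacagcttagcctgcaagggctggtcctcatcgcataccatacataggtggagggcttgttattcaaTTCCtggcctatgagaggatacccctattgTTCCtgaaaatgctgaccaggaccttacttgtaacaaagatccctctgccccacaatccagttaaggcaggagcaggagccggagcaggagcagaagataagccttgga
Tie1: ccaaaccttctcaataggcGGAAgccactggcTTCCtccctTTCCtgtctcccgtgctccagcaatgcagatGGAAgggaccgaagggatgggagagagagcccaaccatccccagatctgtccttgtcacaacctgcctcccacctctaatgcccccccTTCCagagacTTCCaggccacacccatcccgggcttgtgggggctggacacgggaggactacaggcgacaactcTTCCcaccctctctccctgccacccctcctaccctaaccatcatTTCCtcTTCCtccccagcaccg

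The ETS core occurred 5 times in the Kdr window, 4 in Flt1, 2 in Tek and 9 in Tie1, against a median of 3 over 32851 windows, 96% of which hold at least 1. The longer CAGGAA, which contains the core and was searched on both strands, occurred 2 times in Tek and once in Tie1 and in neither VEGF receptor, and 30.6% of all windows hold it. The SOX core ACAAT, on either strand, occurred 2 times in Tek and not in the windows of the other receptors, and 31% of all windows hold it. Such matches describe the letters only. CpG pairs were more numerous in the VEGF receptor windows, with 29 in Flt1 and 19 in Kdr, against 7 in Tie1 and 3 in Tek, where the median of all windows was 7. In neither pair did the expression level differ between the groups beyond its error.

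The junction and surface genes included both the highest member, Cdh5, and the steadiest, Emcn. Cdh5 had log2 values of 14.11, 13.63 and 13.45 in Dnmt1KO, against 14.14, 13.29 and 13.82 in WT, a log2 fold change of -0.020 ± 0.23 (0.678- to 1.44-fold). Replicate 1 was the highest of both groups. Pecam1 stood at 13.49, 13.06 and 13.24 in Dnmt1KO, against 13.31, 12.63 and 13.54 in WT, a log2 fold change of 0.10 ± 0.22 (0.754- to 1.53-fold). PECAM1 is also carried by platelets and leukocytes. Emcn varied least of the 10, with 11.41, 11.30 and 11.22 in Dnmt1KO against 11.35, 11.05 and 11.45 in WT. Its within-group SD was 0.16, its log2 fold change 0.025 ± 0.13 and its interval the narrowest of the members, from 0.832- to 1.24-fold.

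The transcription factors also overlapped between the groups. Sox17 had log2 values of 11.16, 10.55 and 10.80 in Dnmt1KO, against 11.00, 10.52 and 10.91 in WT. Its log2 fold change was 0.027 ± 0.19 (0.756- to 1.37-fold). Outside vessels SOX17 is known from early endoderm, and the part of other cells in its reads was not tested. Sox18, which is more restricted to vessels, stood at 11.77, 11.51 and 11.32 in Dnmt1KO against 11.85, 11.38 and 11.37 in WT, a log2 fold change of 0.0017 ± 0.16 (0.771- to 1.30-fold). It was the member for which Dnmt1KO replicate 3, and not WT replicate 2, was lowest. Erg stood at 11.53, 11.19 and 11.37 in Dnmt1KO against 11.79, 10.99 and 11.56 in WT, a log2 fold change of -0.08 ± 0.20 (0.690- to 1.29-fold). Erg had the most negative fold change of the 10, and it lay well inside the spread of both groups.

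Levels were compared between genes as RPKM, reads scaled for the length of annotated exon and the library total. Cdh5 was highest, at 34.2 ± 8.27 (SD, n = 6) and between 24.1 and 44.1, and was above the next gene in all 6 libraries. Tie1 (23.5 ± 4.23 in Dnmt1KO, 22.5 ± 5.67 in WT) and Pecam1 (23.5 ± 3.55 in Dnmt1KO, 22.3 ± 6.86 in WT) came next and changed places between libraries, with Tie1 above Pecam1 in 4 of 6. Kdr and Sox18 could not be ordered either, Kdr being above Sox18 in 3 of 6 libraries, at means of 19.3 and 18.1 over all 6. The same held for Emcn and Tek at 9.54 and 9.08, again with 3 of 6. Erg followed at 7.77, and Sox17 and Flt1 were lowest at 4.38 and 3.75, with Sox17 above Flt1 in 4 of 6. The signalling receptor Kdr was thus about as far above the limiting receptor Flt1 in Dnmt1KO lungs (19.2 ± 3.20 against 3.83 ± 0.13) as in WT lungs (19.3 ± 4.94 against 3.66 ± 1.51). The length of Flt1, 10961 bases of exon, covers every annotated form, and the share of the secreted form of FLT1 is not given by a value for the whole gene.

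**Figure D2:**
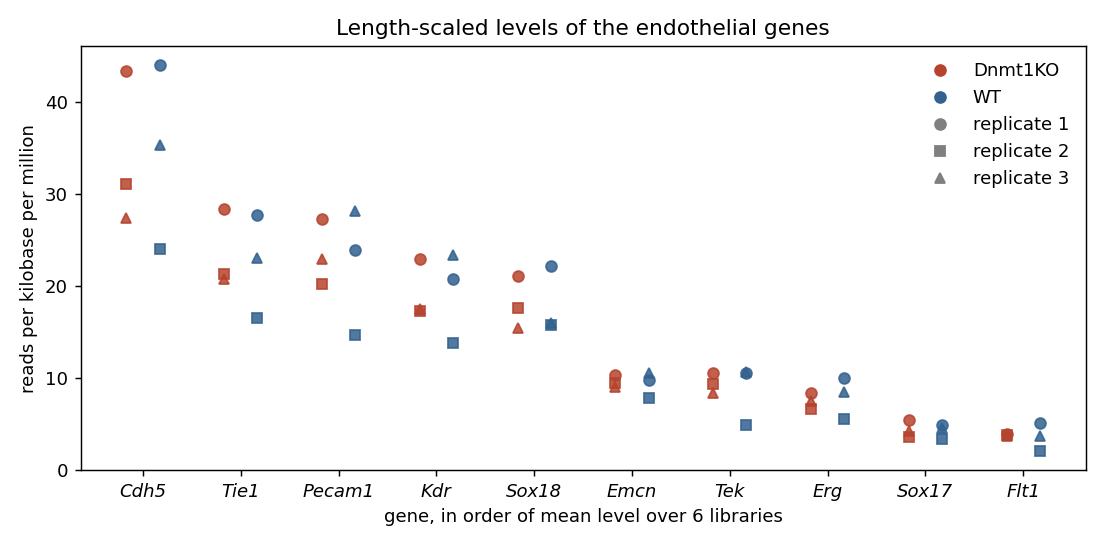
RPKM (reads scaled for exon length and library total) of each endothelial gene, in order of the mean over the 6 libraries, with Dnmt1KO in red to the left and WT in blue to the right. Cdh5 lies above the rest, and within each gene the red and blue points overlap.

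The 10 genes moved together from library to library. Set against its own mean over the 6 libraries, the median member lay at 0.26, -0.10 and -0.07 (log2) in Dnmt1KO replicates 1, 2 and 3, against 0.29, -0.43 and 0.12 in WT replicates 1, 2 and 3. WT replicate 2 was below the mean for all 10 genes and the lowest library for 9, whereas 19.1% of all genes were lowest there. Dnmt1KO replicate 1 was the highest Dnmt1KO library for all 10. Summed over the 10 genes, the CPM (reads scaled to the library total) came to 757, 584 and 575 for Dnmt1KO, against 747, 440 and 694 for WT. The sums averaged 639 ± 102 (SD, n = 3) for Dnmt1KO and 627 ± 164 (SD, n = 3) for WT.

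In WT replicate 2 the deviations were -0.82 for Tek and -0.75 for Flt1, and the smallest were -0.15 for Sox18 and -0.24 for Emcn. The correlation with the mean of the other 9 genes over the 6 libraries was highest for Tie1, at 0.97, and lowest for Sox18, at 0.64. Over the 45 pairs of members, Pearson's r across the 6 libraries had a median of 0.83 and ran from 0.34, for Pecam1 with Sox18, to 0.98. These correlations describe 6 libraries that share preparation and scaling and carry no test. Subtracting the mean of the other 9 genes took the SD over the libraries from 0.28 to 0.069 for Tie1 and from 0.28 to 0.11 for Kdr. It left 0.22 each for Sox18 and Flt1 and 0.21 for Tek, and brought Emcn from 0.14 to 0.17. Relative to the other 9, the difference between Dnmt1KO and WT ran from -0.14 for Erg to 0.15 for Tek. Whether the proportions of the members to each other differed between the groups was not tested. The median within-group SD of the members was 0.32, against a median of 0.16 over all genes.

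**Figure D3:**
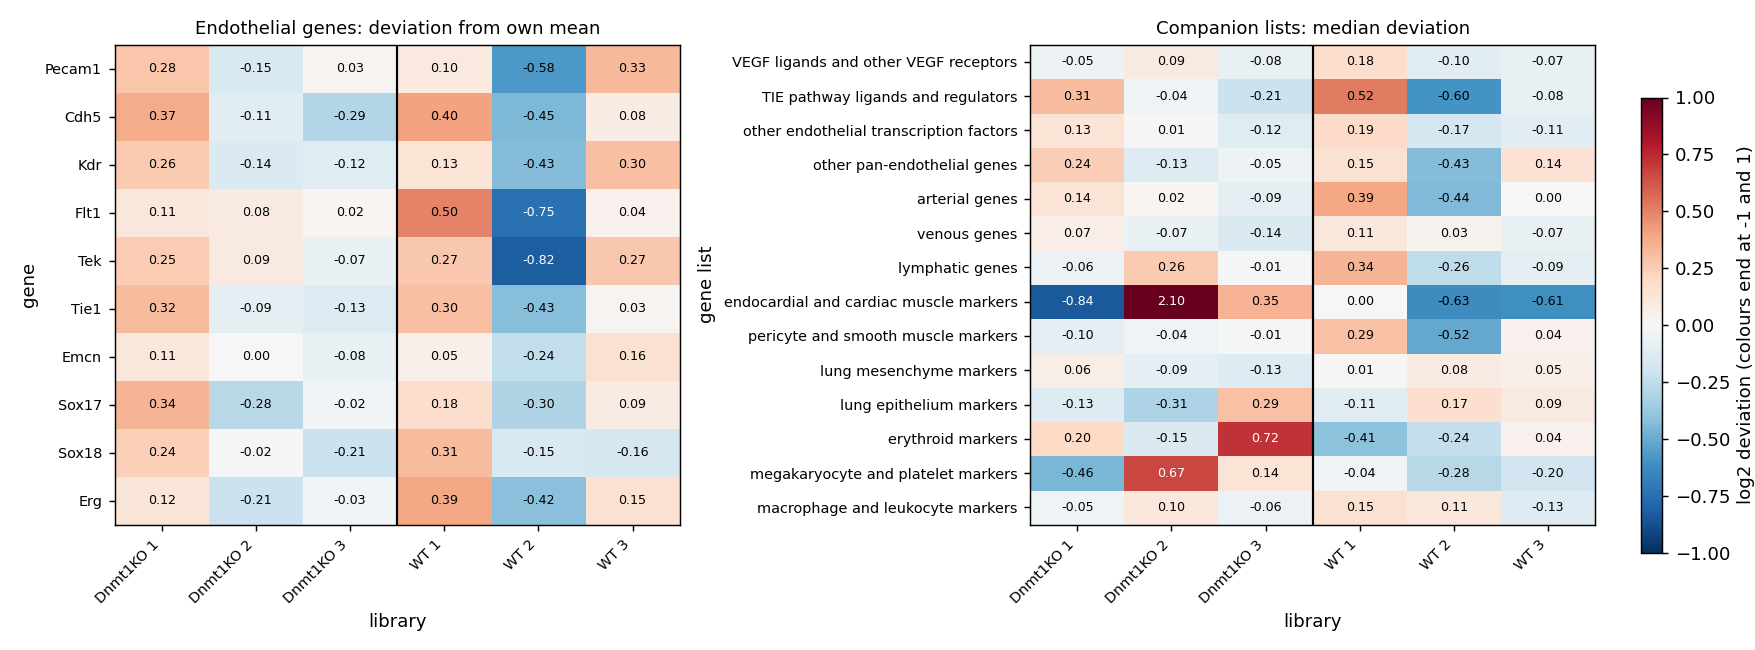
Log2 deviation of each endothelial gene from its mean over the 6 libraries (left) and the median deviation of the genes in each companion list (right), with the 3 Dnmt1KO libraries left of the black line and the 3 WT libraries right of it; red is above and blue below the mean. The column of WT replicate 2 is blue for all 10 endothelial genes and for every companion list but the venous, mesenchyme, epithelium and macrophage lists.

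Because of this, single libraries set the sign of the small differences. Without WT replicate 2 the median log2 fold change of the 10 genes was -0.17 and all 10 were negative, and without WT replicate 1 it was 0.17 and all 10 were positive. Without Dnmt1KO replicate 1, the library nearly free of Y-linked reads, it was -0.10, and without Dnmt1KO replicate 2, the one rich in cardiac transcripts, 0.10. No member passed limma's test in any of these fits, the smallest adjusted p being 0.967, for Flt1 without WT replicate 1.

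**Figure D4:**
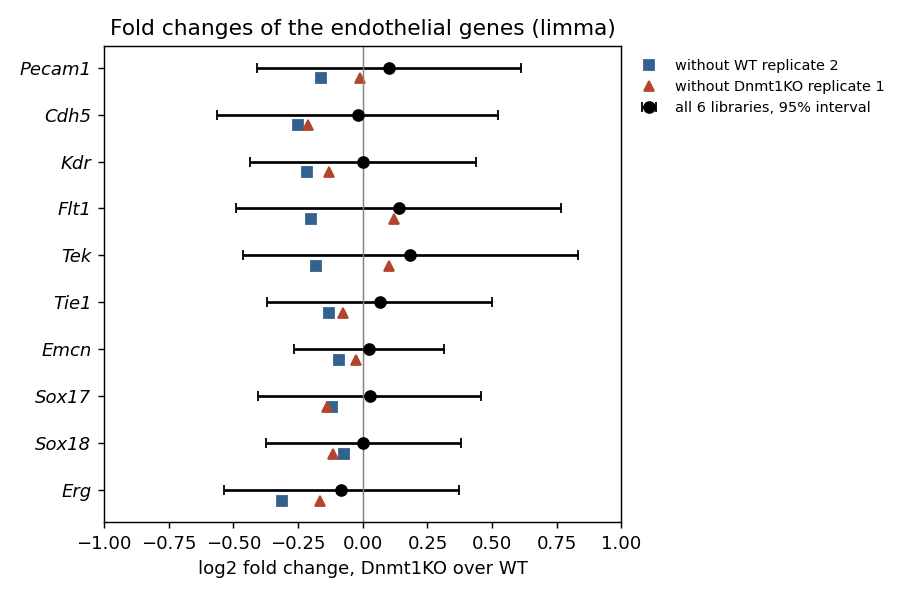
Log2 fold change of each endothelial gene, Dnmt1KO over WT, from limma, as black points with 95% intervals; red triangles show the value without Dnmt1KO replicate 1 and blue squares that without WT replicate 2. Every interval includes 0, and all blue squares lie below 0.

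The genes whose values followed the endothelial mean most closely over the 6 libraries, among 11544 named genes outside the members with at least 100 reads on average, were Nos3, Epas1, Baz2b, Lpin1 and Sh3tc1. Nos3, the nitric oxide synthase of endothelium, had Pearson's r = 0.991 and Spearman's rho = 0.943 over 6 libraries, and Epas1, the hypoxia-inducible factor HIF-2α that is abundant in lung endothelium, had r = 0.991 and rho = 0.943. The chromatin gene Baz2b, the phosphatidate phosphatase gene Lpin1 and Sh3tc1 had r of 0.991, 0.989 and 0.987. Among so many genes and so few libraries, high values arise in genes of any kind. The log2 fold changes of Nos3 and Epas1 were 0.041 ± 0.24 and 0.086 ± 0.36, neither past the test.

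Beyond the 10 members, 82 further genes of the vascular system were measured, on 7 lists that share 2 genes, Nrp2 and Flt4. By limma 0 of the 82 passed the test over all genes, and 3 (3.66%, against 4.52% of all genes) had an unadjusted p under 0.05. Of the 82, 50 lay above 0, as did 7076 of all 14162 genes, and the median fold change was 0.032 (log2). By voom 0 passed and 3 had an unadjusted p under 0.05. Of the 8 VEGF ligands and other receptors, 0 passed and the list median was 0.014. Vegfa, the main ligand, stood at 13.75, 13.92 and 13.84 in Dnmt1KO against 13.90, 14.04 and 13.86 in WT, a log2 fold change of -0.10 ± 0.085, and the placental growth factor gene Pgf had -0.14 ± 0.15. Ligand and receptor thus both showed values within the spread of the libraries. Nrp2, a co-receptor of VEGF-C, had -0.021 ± 0.29.

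The TIE pathway list (7 genes, 0 passed, median 0.0065) had 5 of 7 genes below their means in WT replicate 2, with a median deviation of -0.60. Its summed CPM, 329.5, 249.5 and 246 for Dnmt1KO against 263, 270.1 and 258 for WT, was not low in that library. Most of that sum was Svep1, which had 4178 reads in WT replicate 2, against 683 for Angpt1, 389 for Ptprb and 100 for Angpt2. Svep1 and Angpt1 lay above their means there, at 0.18 and 0.091, and Ptprb and Angpt2 below, at -0.61 and -0.93. Angpt1, the activating ligand made by cells around the vessel, had a log2 fold change of -0.093 ± 0.18, and Angpt2, which endothelial cells of growing vessels release and which can oppose it, 0.27 ± 0.34. Angpt4 had few reads, 29, 15 and 24 for Dnmt1KO against 35, 12 and 12 for WT, and 0.54 ± 0.49. Svep1, an extracellular matrix protein, had 0.071 ± 0.14. The groups overlapped in all 7 genes.

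Of 17 other endothelial transcription factors 0 passed, 2 had an unadjusted p under 0.05 and 2 had groups that did not overlap. The shares over all genes were 4.52% and 8.78%. Tal1, a factor shared by blood and endothelium, stood at 11.00, 10.81 and 11.10 in Dnmt1KO against 10.77, 10.64 and 10.56 in WT, a log2 fold change of 0.31 ± 0.12 (limma adjusted p = 0.95). All Dnmt1KO values lay above all WT values, as they did for Gata1, an erythroid factor at 8.02, 7.85 and 8.04 in Dnmt1KO against 7.38, 7.22 and 7.48 in WT (0.61 ± 0.24, adjusted p = 0.968). The median fold change of the 12 erythroid markers was 0.46 (log2), with 12 above 0, as were 7076 of all 14162 genes. Of these markers 0 were called and 2 had an unadjusted p under 0.05. Their part in the Tal1 value was not tested. Ets2 had -0.21 ± 0.084 (adjusted p = 0.969), with every Dnmt1KO library below every WT library, and its relative Ets1 had -0.083 ± 0.13. The list median was 0.049.

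The 29 other pan-endothelial genes repeated the pattern of the members. Their median lay at 0.24, -0.13 and -0.05 for Dnmt1KO replicates 1, 2 and 3, against 0.15, -0.43 and 0.14 for WT replicates 1, 2 and 3, and 21 of the 29 were lowest in WT replicate 2. None passed, and the list median was 0.049. Calcrl, the receptor of adrenomedullin, was the 1 gene with an unadjusted p under 0.05, with 733, 939 and 676 reads for Dnmt1KO against 847, 266 and 603 for WT and a log2 fold change of 0.80 ± 0.32 (limma adjusted p = 1.0). On the log2 scale WT replicate 1, at 11.73, lay above Dnmt1KO replicate 3, at 11.68, so the groups overlapped. Mcam had 0.32 ± 0.21, Stab1 -0.050 ± 0.14 and Afap1l1 -0.13 ± 0.13.

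Vessel subtypes were also without a called gene. The arterial list (13 genes, median -0.042) had 0 past the test, with 0.25 ± 0.13 for the guidance receptor gene Unc5b, -0.22 ± 0.20 for Notch1 and -0.20 ± 0.13 for the chemokine receptor gene Cxcr4. The venous list (5 genes, median -0.021) had 0, with -0.0059 ± 0.11 for Nr2f2, the factor that sets venous identity. Ephb4, the receptor on veins for the arterial ligand ephrin-B2, had -0.057 ± 0.088. In Dnmt1KO lungs Nr2f2 and Ephb4 averaged 43.5 and 68.0 RPKM, above Cdh5, the highest member, at 34.0. The venous list had a median deviation of 0.034 in WT replicate 2, where that of the members was -0.43. The part of other cells in the reads of the subtype lists was not tested. Apln, a peptide that marks sprouting tips more than veins, was also on this list, at -0.51 ± 0.24. The gene of its receptor, Aplnr, had 0.027 ± 0.23. Of 6 lymphatic genes, with a median of 0.058, 0 passed, with 0.25 ± 0.15 for Pdpn, 0.45 ± 0.34 for Reln and -0.053 ± 0.11 for Flt4. Prox1 had 0.037 ± 0.34 and Lyve1 0.079 ± 0.39. Lyve1 did not follow the members, with deviations of -0.89 in WT replicate 1 and 0.42 in WT replicate 2.

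**Figure D5:**
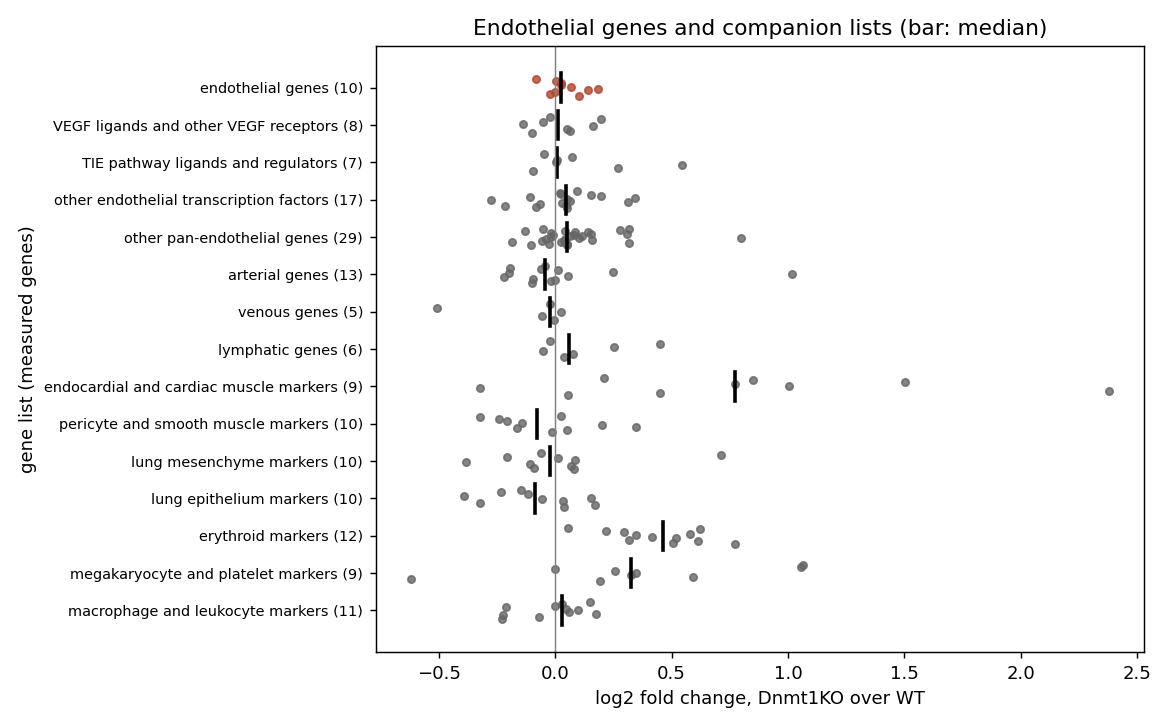
Log2 fold change, Dnmt1KO over WT, of each gene in the endothelial set (red) and in each companion list (grey), with the number of measured genes in parentheses and the list median as a black bar. The endothelial genes lie between -0.08 and 0.18, and the cardiac list has the highest median, 0.77.

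Lists for the other cells of a whole lung give the setting in which these values were read, and 0 of their genes passed the test. Genes of pericytes and smooth muscle, the cells that wrap vessels and airways, were low in WT replicate 2 as well, as were most of the companion lists, with 9 of 10 below their means and a median of -0.52 there. Their CPM summed to 1068, 962 and 1014 in Dnmt1KO, against 1263, 831 and 1321 in WT. The list median of the fold change was -0.079, with -0.14 ± 0.11 for Notch3, 0.35 ± 0.28 for Kcnj8 and -0.21 ± 0.35 for Acta2. Epithelial genes went the other way in WT replicate 2, where 1 of 10 was below its mean, and summed to 786, 652 and 954 in Dnmt1KO against 759, 865 and 823 in WT. That list had a median of -0.088, with -0.32 ± 0.15 for Nkx2-1, -0.23 ± 0.17 for Esrp1 and 0.037 ± 0.18 for Epcam. Mesenchymal genes had a median of -0.024, with Foxf1, a Hedgehog-dependent factor that vessels of the lung need, at 13.64, 13.55 and 13.52 in Dnmt1KO against 13.81, 14.07 and 13.97 in WT (-0.38 ± 0.089, limma adjusted p = 0.261), Fgf10 at 0.71 ± 0.37, Col3a1 at 0.014 ± 0.11 and Col1a1 at 0.085 ± 0.18. The groups did not overlap for Foxf1, nor for 8.78% of all genes.

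Cells that share genes with endothelium were measured through their own markers. Npr3 and Nfatc1, listed for the lining of the heart, had log2 fold changes of 0.054 ± 0.11 and 0.45 ± 0.26. Npr3 had between 2471 and 3498 reads in every library and lay at -0.089 from its mean in Dnmt1KO replicate 2. The part of heart lining in its reads was not tested. The cardiac muscle genes Tnni3 and Actc1 had 1.5 ± 0.65 and 0.85 ± 0.74, and the 9 genes of the list had a median of 0.77. Without Dnmt1KO replicate 2, Actc1 had 0.0093 and Tnni3 0.69. The CPM of the 9 listed genes summed to 592 in Dnmt1KO replicate 2, with 212 and 241 in the other Dnmt1KO libraries and 247, 171 and 207 among WT. Npr3 made up most of the sum in the other libraries, so the sums understate how far genes such as Myh6 rose in Dnmt1KO replicate 2. The endothelial genes were not high in that library, and without it the median of the members was 0.10 in place of 0.026. Megakaryocyte and platelet genes had a median of 0.33, with 2 of 9 at an unadjusted p under 0.05 (4.52% over all genes), Itga2b at 0.59 ± 0.21 (adjusted p = 0.817) and Gfi1b at 1.06 ± 0.39 (0.858), and Pf4 at 0.19 ± 0.25. They summed to 37.4, 72.7 and 48.2 CPM in Dnmt1KO, against 41.1, 42.4 and 38.8 in WT, low beside the members. Among the erythroid genes Hba-a1 had 0.58 ± 0.22, Hbb-y 0.42 ± 0.22 and Hba-x 0.52 ± 0.26. Macrophage and leukocyte genes had a median of 0.028, with Adgre1 at -0.22 ± 0.16, Mrc1 at -0.21 ± 0.17 and Csf1r at -0.070 ± 0.11. The part of these cells in the values of the members was not tested.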

How the data were processed

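Each library has 1 table of Ensembl identifiers and log2 values, which the authors deposited. STAR, limma and build mm9 are named, without versions or roles, per the submitters' processing notes. For the read counter, annotation and gene filter the step was not given in the sources used here. Raising 2 to the deposited log2 values gave whole reads plus 0.5, times a constant per library, for 100% of 14162 genes within 1e-06 reads. The lowest gene total was 60 reads, so rarer genes were not analysed. Same-group libraries differed by more than counting noise.

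Symbols and exon lengths came from GENCODE M21 (GRCm38), which named 13967 identifiers, and levels per length used these lengths. All fits used limma 3.58.1 and R 4.3.3. The main one took the log2 values of all genes with genotype as the only term, trend and robust moderation and Benjamini-Hochberg adjustment at 0.05, a script first tested on simulated data. The 95% intervals are limma's and cover the spread between libraries.

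The members and lists were chosen with earlier results of these data known. Besides the members, the text names per list the 2 genes with the smallest p, the 2 with the highest means and any past the test, and the 5 genes most like the members; other genes were chosen after their values were seen. As alternatives, fits had a term for replicate number or left out the lowest 25% of genes. Others used quantile normalization, median centring, scaling to total reads, voom on recovered reads with TMM scaling, plain moderation, library weights, removal of erythroid genes and leaving out each library. An alternative pseudocount, planned for linear values, did not apply.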

Additional observations from a re-analysis of the deposited data

How the results depend on the processing

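No member passed the test under any of the 15 alternatives, in either direction. The members' median log2 fold change of 0.026 moved to between -0.17 and 0.17 as libraries were left out. It was -0.020 with library weights and 0.010 with voom. In each alternative it moved by less than 0.37, the SD of the members' median deviation among WT libraries (0.20 among Dnmt1KO). Leaving out 1 of 3 libraries can hardly move a group mean by its SD, so that limit was wide for those fits. Over all genes the counts of 40 higher and 1 lower became 26 and 0 with the replicate number as a block, 0 and 0 without the lowest 25% of genes, 24 and 1 with voom, 57 and 12 with library weights, 32 and 0 with plain moderation, and between 15 and 42 higher and 0 and 17 lower as libraries were left out. The block did not change a call of any member, but it lowered the SE of each. The SE went from 0.19 to 0.10 for Tie1 and from 0.23 to 0.14 for Cdh5, but only from 0.27 to 0.25 for Flt1. The printed intervals are those without the block. Over all genes, the deviations of same-numbered libraries had correlations of -0.0027, -0.18 and 0.31, and Dnmt1KO replicate 2 correlated best with WT replicate 1 (0.38). With 3 libraries per group, such correlations cannot tell whether the numbers pair the samples. Among the genes of the companion lists that each alternative kept, 0 passed. Without the lowest 25% of genes, Angpt4, Gata1, Gfi1b, Adgre1, Tnni3 and Lpin1 were not tested. With library weights the log2 fold change turned sign, to Pecam1 -0.065, Kdr -0.12, Emcn -0.023, Sox17 -0.064, Epcam -0.14, Flt4 0.0096, Npr3 -0.0036, Nr2f2 0.052, Nrp2 0.21 and Nos3 -0.0011. With voom the log2 fold change turned sign, to Kdr -0.0040 and Sox18 -0.014. With quantile normalization the log2 fold change turned sign, to Sox17 -0.0013, Nr2f2 0.028, Nrp2 0.0027, Baz2b 0.022 and Lpin1 -0.0050. With scaling to total reads the log2 fold change turned sign, to Nr2f2 0.0092 and Baz2b 0.0094. As each library was left out, log2 fold changes near 0 turned sign in at least 1 fit, with ranges of Pecam1 -0.16 to 0.29, Cdh5 -0.25 to 0.17, Kdr -0.21 to 0.15, Flt1 -0.20 to 0.42, Tek -0.18 to 0.37, Tie1 -0.13 to 0.23, Emcn -0.091 to 0.11, Sox17 -0.14 to 0.17, Sox18 -0.12 to 0.16, Erg -0.31 to 0.091, Acta2 -0.58 to 0.11, Angpt1 -0.30 to 0.084, Angpt2 -0.13 to 0.65, Col1a1 -0.073 to 0.25, Col3a1 -0.067 to 0.13, Csf1r -0.15 to 0.018, Epcam -0.14 to 0.23, Ephb4 -0.11 to 0.0017, Ets1 -0.17 to 0.027, Flt4 -0.12 to 0.050, Npr3 -0.052 to 0.11, Nr2f2 -0.10 to 0.059, Nrp2 -0.24 to 0.28, Pf4 -0.016 to 0.47, Stab1 -0.17 to 0.060, Svep1 -0.067 to 0.18, Nos3 -0.23 to 0.23, Epas1 -0.30 to 0.38, Baz2b -0.11 to 0.060, Lpin1 -0.20 to 0.27 and Sh3tc1 -0.12 to 0.18. The causes of these turns were not tested. The planned change of pseudocount was not run, since the values are on a log scale already. Every member had at least 290 reads in each library, and the 95% intervals came from differences between libraries.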

Other observations

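Some vascular genes set WT replicate 1 apart and not WT replicate 2 alone. They were chosen after their values were seen, and no test was made. Foxc2, a transcription factor of arteries and lymphatic valves, had 87, 297 and 194 reads among Dnmt1KO replicates 1, 2 and 3, against 589, 73 and 172 in WT replicates 1, 2 and 3. Its relative Foxc1 had 237, 692 and 417 reads for Dnmt1KO, against 1034, 273 and 353 for WT. The Notch ligand gene Jag1 had 719, 914 and 860 in Dnmt1KO, against 2352, 550 and 1003 in WT, and the arterial factor gene Hey2 had 47, 104 and 61 in Dnmt1KO, against 261, 30 and 66 in WT. In all 4 genes WT replicate 1 was the highest and WT replicate 2 the lowest of the WT libraries. Hand2, a factor of heart and mesenchyme, had 41, 390 and 208 reads for Dnmt1KO, against 681, 28 and 173 for WT, while Myh6 of cardiac muscle was highest in Dnmt1KO replicate 2.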
